A study of Saccharomyces cerevisiae with 11 samples.

Results

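The 6 B-type cyclin genes of budding yeast (Saccharomyces cerevisiae), CLB1 to CLB6, were taken by symbol from the deposited annotation of the SK1 strain, together with every candidate open reading frame (ORF) that the deposited rating table lists under their identifiers. All 6 genes were in the table, with 259 of its 192230 candidate ORFs. The table covers 5699 genes with a median of 30 candidates each, and the cyclin genes had 47 (CLB1), 36 (CLB2), 33 (CLB3), 40 (CLB4), 52 (CLB5) and 51 (CLB6). The study sequenced ribosome-protected RNA fragments from SK1 cells that had first been exposed to 3 µM lactimidomycin (LTM), which holds ribosomes at start codons. Its 11 libraries were each the only one of their group. Sporulation libraries were made at 0, 1.5, 3, 4.5, 6, 8, 10 and 22 h after the move to sporulation medium. One further library came from MATa/a cells at 4.5 h in the same medium, a mating-type state that does not enter meiosis. Vegetative cells in rich medium gave the remaining libraries, 1 from exponential growth at an OD600 of 0.6 and 1 from saturation at an OD600 of 10.

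The table holds 1 value per ORF and 0 columns for single libraries, so levels of the cyclins by hour or between vegetative and meiotic cells are not given, nor is a depth per library. No value has a replicate. The differences between genes and between starts below are therefore descriptions without a test, and whether neighbouring values differ beyond experimental error cannot be said. Each candidate carries a score from 0 to 1 from the authors' random forest. A candidate with a score above 0.5, a cut-off named in the deposited notes, is called rated here. LTM evidence is the authors' statistic for the strength of a start codon in the LTM data. It has no stated scaling to depth or length, so it was read mainly as a ratio within a gene. Ratios and shares of LTM or CHX evidence compare this statistic and are not measured ratios or shares of initiation or protein.

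B-type cyclins bind the cyclin-dependent kinase Cdc28 and direct it to its substrates at successive points of the cell cycle, and their activity is ended by kinase inhibitors and by proteolysis of the cyclins. The genes form 3 pairs of duplicates. CLB5 and CLB6 act first, in DNA replication, and also drive the replication that precedes meiosis. CLB3 and CLB4 act in spindle assembly and CLB1 and CLB2 at entry into mitosis, with CLB2 the main mitotic cyclin and CLB1, CLB3 and CLB4 the ones used in the meiotic divisions. In meiosis CLB3 is also known for control of its translation through its leader, which delays the protein until the second division. CLB1 (YGR108W) lies at 710796 to 712211 on the plus strand of SK1 chromosome 7, and CLB6 (YGR109C) at 712519 to 713661 on the minus strand, so the pair converge with 307 nt between them. CLB2 (YPR119W, 787686 to 789161, plus strand) and CLB5 (YPR120C, 789908 to 791212, minus strand) converge in the same way on chromosome 16, 746 nt apart. CLB3 (YDL155W) is at 181125 to 182408 of chromosome 4 and CLB4 (YLR210W) at 565455 to 566837 of chromosome 12, both on the plus strand.

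All 6 annotated AUG starts were rated, against 93.3% of the 4814 annotated ORFs in the table. Annotated coding sequences took part in training the score, so this is no independent check. Their scores were 0.955 in CLB4, 0.949 in CLB5, 0.864 in CLB2, 0.820 in CLB1, 0.809 in CLB6 and 0.595 in CLB3. The median over all annotated ORFs was 0.896. CLB3 was thus the lowest of the cyclins, and its annotated start also had the least LTM evidence, 162, at the 14.7th percentile of all annotated starts. The others lay between the 56.6th percentile (CLB1, 3873) and the 72.9th (CLB6, 7581), with 4903 in CLB2, 6255 in CLB4 and 6849 in CLB5.

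The genes differed in how much of their LTM evidence fell on the annotated start. The share was 99.9% in CLB4, 83.0% in CLB6, 81.6% in CLB2, 56.6% in CLB5, 21.3% in CLB1 and 11.6% in CLB3. Over 4804 genes with an annotated ORF the median share was 93.5% (interquartile range 46.3 to 99.5). CLB1 and CLB3 were the 2 cyclin genes with less than 50% on the annotated start, as were 25.7% of all genes. In CLB1 most of the evidence lay on its 3 candidate in-frame extensions (61.4% together, of which 60.3% on a single one) and in CLB3 on ORFs that run over the annotated start in another frame (63.8%).

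**Figure D1:**
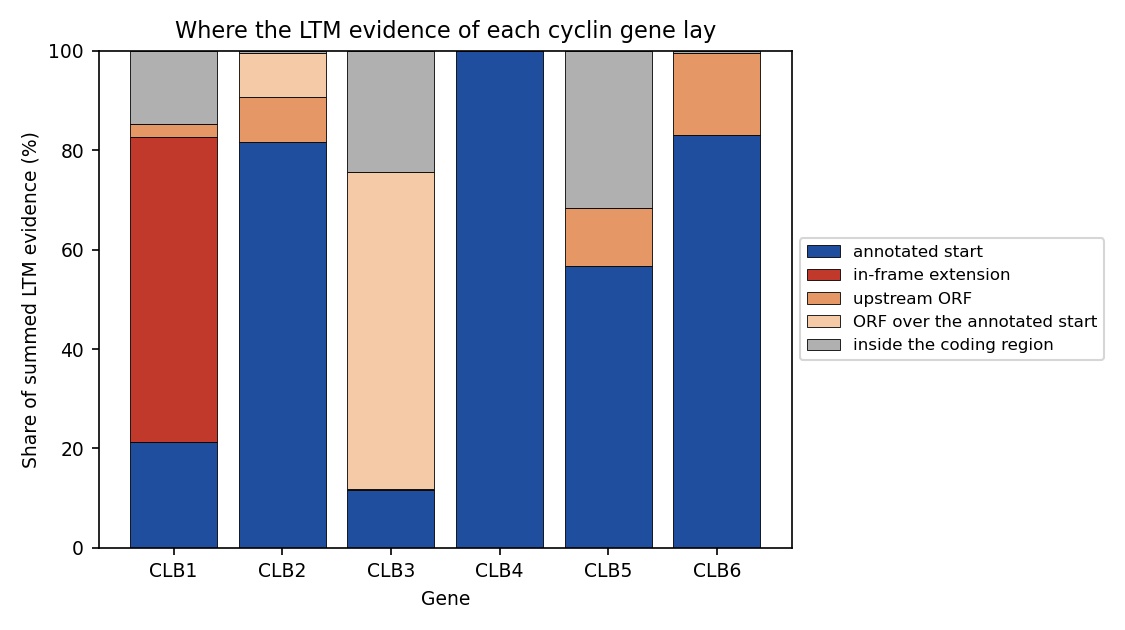
Stacked bars give, for each cyclin gene, the percentage of the summed LTM evidence of its candidates that fell on the annotated start, in-frame extensions, upstream ORFs, ORFs over the annotated start and candidates inside the coding region. The annotated start holds nearly the whole bar in CLB4 (99.9%) and the smallest part in CLB3 (11.6%), while CLB1 alone has an extension.

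**Figure D2:**
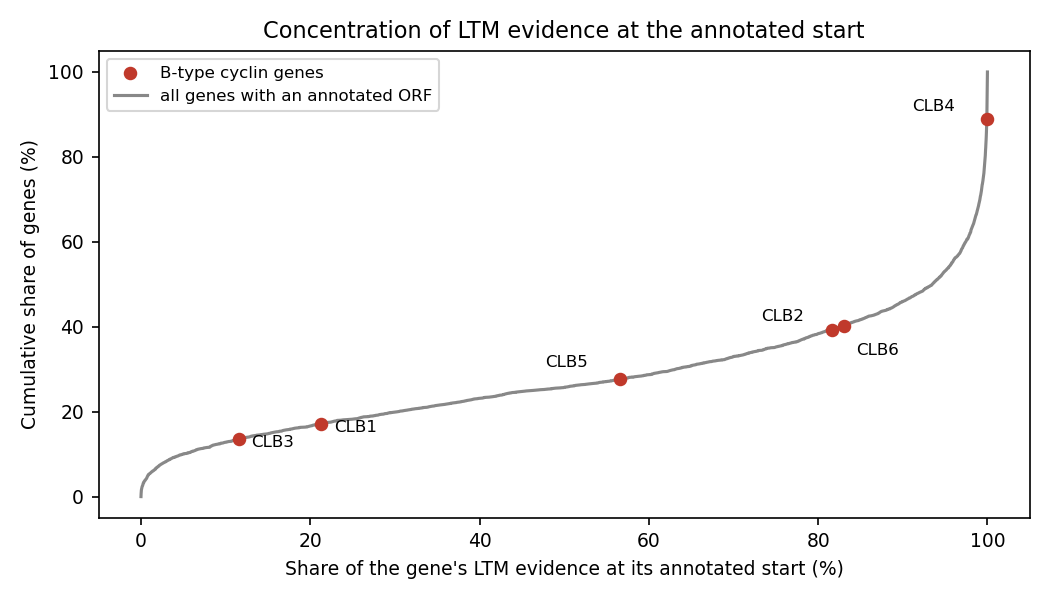
The horizontal axis is the share of a gene's LTM evidence at its annotated start (%) and the vertical axis the cumulative share of genes (%). The line is all 4804 genes with an annotated ORF, and the points are the 6 cyclin genes, which run from 11.6% in CLB3 to 99.9% in CLB4.

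The CLB1 extension is an AUA codon 51 nt (17 codons) before the annotated AUG, at 710745 of SK1 chromosome 7. The sequences below show the starts of CLB1 that carry most of its LTM evidence, read from the RefSeq S288C genome (R64) at the same distance from the annotated start. All 47 CLB1 candidates had the same start codon and the same stop distance in S288C. Each run has 12 bases before the start codon, the codon in capitals (T stands for U) and 15 bases after it. All are on the plus strand of chromosome VII.
CLB1 UUG upstream ORF (chr7:703498-703527): aaactattaaagTTGctaactggtgcagct
CLB1 AUA extension of 27 codons (chr7:703543-703572): gcgtaattaagaATAagatctaccaacaag
CLB1 AUA extension of 17 codons (chr7:703573-703602): aacagagccaaaATAttttcgtccgttata
CLB1 annotated AUG (chr7:703624-703653): aatcttctcataATGtcacgatcccttttg
CLB1 internal AUG (chr7:703670-703699): ccattaatagtaATGaagagaagggggtaa
Both AUA codons and the annotated AUG have an A at the third base before the codon, the base found there at 60.8% of 6004 annotated S288C AUG starts. Over the 6 cyclin genes an A stood there at 3 of 6 annotated starts (50%), and at 11 of 25 rated (44%) and 13 of 53 unrated (24.5%) starts before them whose codon is the same in S288C. At this base the strongest UUG of CLB1, CLB2 and CLB6 has an A, that of CLB3 a T and that of CLB5 a C.

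The AUA 17 codons upstream had LTM evidence of 10977, against 3873 at the annotated AUG. The AUA further upstream had 198, with a score of 0.598, and the AAG candidate between them had 0.00347, with a score of 0.0280. Nearly all the evidence among the 3 in-frame candidates was thus at 1 AUA codon. Of 3 candidate extensions in CLB1, 2 were rated, while 3.64% of near-cognate candidate extensions (those starting at a codon 1 base different from AUG) were rated over the whole table.

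In the CHX data, a second data set of the authors that the notes do not describe, the AUA was also above the annotated AUG. CHX start evidence was 55.5 at the AUA and 0.872 at the annotated AUG, a ratio of 63.6. The order of other CLB1 starts differed between the data sets. CHX evidence was 100.4 at an ACG 369 nt inside the coding region, a truncation that was not rated (score 0.202, LTM evidence 5.91), 31.0 at the AUG 46 nt inside and 3.94 at a UUG 399 nt upstream. The CHX regression value, which the authors use for the expression of an ORF, was 1.32 for the extension and 0.173 for the annotated ORF. By this value the ORFs differed by a smaller factor than by CHX start evidence. As a fraction of the strongest value among ORFs that share their stop codon, a measure of the authors, the extension stood at 1 and the annotated ORF at 0.131. Truncations that were not rated also stood above the annotated ORF, the ACG at 369 nt with 0.813. Both data sets enter the forest score, so the 0.952 of the extension is not separate support.

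Among the 80 rated near-cognate extensions of genes with an annotated start in the table, the CLB1 extension ranked 1 by score, 2 by LTM evidence, 3 by CHX ratio and 10 by LTM ratio to the annotated start. LTM evidence was above that of the annotated start in 18.8% of the 80, and CHX evidence in 35%. By nearness of the LTM ratio on the log2 scale, the 5 genes most like CLB1 were RAD53, DAL5, SOY1, YFR012W-A and YJR111C. In RAD53, the DNA damage checkpoint kinase, the ratio was 3.39 at an AUU extension of 23 codons. In DAL5, a permease for allantoate, the ratio was 2.24 at an AAG extension of 1 codon. SOY1 (AUU, 9 codons), YFR012W-A (AUU, 43 codons) and YJR111C (AUA, 10 codons) had ratios of 1.71, 1.70 and 1.67. In the CHX data only DAL5 of these 5 was also above its annotated start, with a ratio of 1.93, and the others lay between 0.00318 and 0.254.

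**Figure D3:**
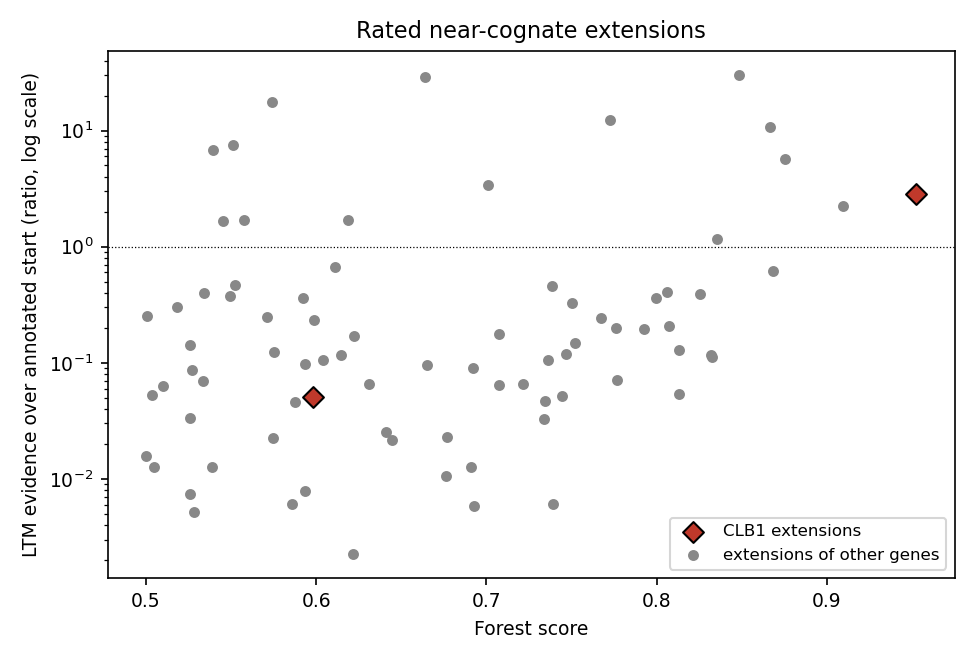
Each point is 1 of the 80 rated near-cognate extensions, with its forest score on the horizontal axis and its LTM evidence over that of the annotated start on the vertical axis (ratio, log scale). The diamonds are the CLB1 extensions, at a score of 0.952 with a ratio of 2.83 and at 0.598 with a ratio of 0.0511, and the dotted line marks equal evidence.

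None of the other 5 cyclin genes had a candidate extension. In S288C the reading frame of CLB1 is open for 29 codons before its AUG, with 6 codons among them that are AUG or near-cognate. Its duplicate CLB2 and also CLB3 have an in-frame stop codon directly before the AUG, for an open stretch of 0 codons. CLB4 and CLB5 have 1 open codon and CLB6 has 3. In CLB6, 1 of these is AUG or near-cognate, yet the gene had 0 candidate extensions. Of the 6 such codons in CLB1, 3 were candidates, so an open frame with such a codon did not always give a candidate. The median over 6008 S288C genes is 9 codons (interquartile range 4 to 19), and the CLB1 stretch is at the 87.8th percentile. The SK1 genome was not used here, but the length of the longer CLB1 extension in the table, 498 codons against 471 for the annotated ORF, shows the same open frame in SK1 over those 27 codons.

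CLB3 had its strongest LTM evidence at a UUG 64 nt before the AUG, in another frame. The next sequences, again S288C R64 from the plus strand, show this start with the annotated AUG of CLB3, the internal AUA just after it, and a UUG of CLB2 at the same distance.
CLB3 UUG over the start (chr4:176697-176726): aaaagctatttaTTGtttctgtccttcgct
CLB3 annotated AUG (chr4:176761-176790): tgcttattataaATGcatcataactcacag
CLB3 internal AUA (chr4:176768-176797): tataaatgcatcATAactcacagtctttga
CLB2 UUG over the start (chr16:771577-771606): tttttttataacTTGctatttccttccaag
CLB2 annotated AUG (chr16:771641-771670): ttgatcttatagATGtccaacccaatagaa
The CLB3 UUG opens an ORF of 24 codons at 181061 of SK1 chromosome 4, which ends at 181135, just inside the coding region. Its LTM evidence was 866 and its score 0.869, against 162 and 0.595 at the annotated AUG, a ratio of 5.35. The CHX ratio of the same pair was 4.54, from CHX evidence of 1.49 and 0.328. Higher CHX evidence stood at other CLB3 starts, with 27.4 at the internal AUA. It was 32.4 at an AGG 39 nt inside the coding region, a truncation that was not rated (score 0.0483). A UUG at 85 nt shares the stop codon of the ORF of 24 codons and was rated as well (score 0.812). Its LTM evidence was 25.4 and its CHX evidence 1.94.

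Strongest starts before the annotated one that exceed it in LTM evidence were found in 2 of the 6 cyclin genes, CLB1 and CLB3, and in 16.5% of 4693 genes. CLB3 stood at the 90.6th percentile of that ratio and CLB1 at the 88.5th. In CLB5, CLB6 and CLB2 the ratio of the strongest earlier start was 0.200, 0.181 and 0.110, and in CLB4 it was 8.1e-05. CLB2 also had a UUG 64 nt before its AUG, rated at 0.698, but there it carried 541 against 4903 at the AUG. Within the 3 pairs of duplicates, 1 candidate distance before the start was shared by CLB1 and CLB2, 0 by CLB3 and CLB4 and 0 by CLB5 and CLB6, and 0 rated starts had the same distance in both genes of any pair.

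**Figure D4:**
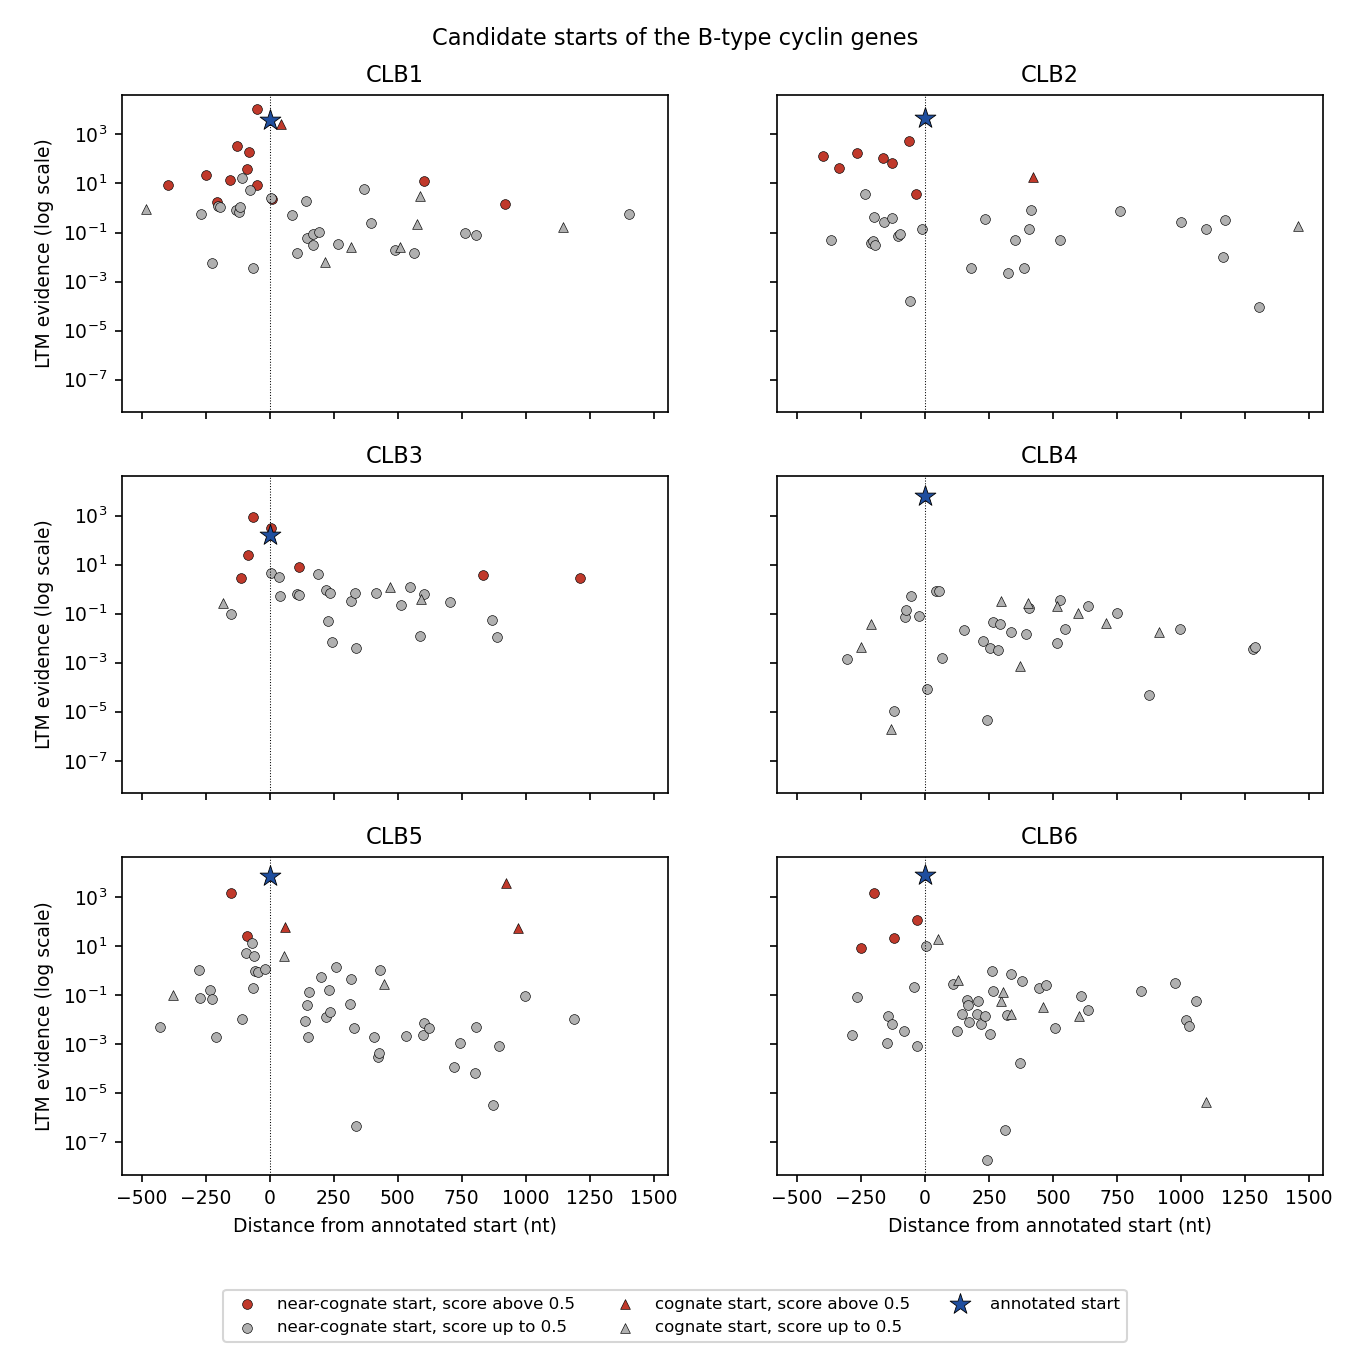
The panels show the 6 genes, with the distance of each candidate start from the annotated start (nt) on the horizontal axis and its LTM evidence on the vertical axis (log scale). Stars are annotated starts, circles near-cognate and triangles AUG starts, and red marks a score above 0.5. In CLB1 and CLB3 a red circle before the annotated start stands above the star. In CLB3 another red circle, just inside the coding region, does so too, and in CLB4 no other start is red.

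Before the annotated starts the cyclin genes had 82 candidates in all, of which 25 were rated (30.5%), against 20.6% of 40280 in the whole table. They were in 5 of the 6 genes. CLB1 had 9 rated of 20, CLB2 7 of 19, CLB6 4 of 12, CLB3 3 of 5, CLB5 2 of 17 and CLB4 0 of 9. At least 7 rated starts, as in CLB1 and CLB2, were found in 3.37% of 4693 genes with a candidate there. That cut-off is the count of CLB2 itself, so both genes pass it by construction. The share also takes no account of the number of candidates, 20 in CLB1 and 19 in CLB2. Counting only upstream ORFs, which end before the annotated start, 20 of 73 were rated (27.4%), against 22% in the table. Of 6 ORFs over the annotated start 3 were rated, against 20.2%.

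UUG made up most of these starts. Of 22 UUG candidates 16 were rated (72.7%), in the same 5 genes, while 32.4% of UUG candidates before annotated starts were rated over the whole table. The count by gene was 4 of 4 in CLB1, 6 of 7 in CLB2, and 2 of 3 each in CLB3, CLB5 and CLB6, against 0 of 2 in CLB4. UUG thus stood for 64% of the 25 rated starts of the cyclins and for 23.9% of the 8281 in the table. The other near-cognate codons were rated in 9 of 54 cases (16.7%, against 14%), with 4 AUA, 2 AUU, 2 CUG and 1 GUG. Of the AUG codons 0 of 6 were rated, against 31% in the table, too few candidates to read as a difference. These AUG candidates lay in CLB4 (3), CLB1, CLB3 and CLB5, with scores from 0.328 to 0.465 and LTM evidence of at most 0.907. Candidates of 1 gene share a transcript and are not independent, and the set was described with earlier results of these data known, so the shares carry no p-value.

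By LTM evidence, the strongest starts before the AUG of the S-phase cyclins CLB5 and CLB6 were UUG codons of upstream ORFs. The sequences are from the minus strand of S288C R64, with the internal AUG of CLB5 described further on and, on the plus strand, the AUG of CLB4 for comparison.
CLB5 UUG upstream ORF (chr16:775318-775347): tctgtctatctaTTGaagtctttttgtctt
CLB5 annotated AUG (chr16:775165-775194): ctttactgaacaATGggagagaaccacgac
CLB5 internal AUG (chr16:774240-774269): tctccaaggcagATGattacgatccggtta
CLB6 UUG upstream ORF (chr7:706684-706713): cgttttagcacaTTGattaccttttttgct
CLB6 annotated AUG (chr7:706484-706513): taaatttttaaaATGaattgtatccctagt
CLB4 annotated AUG (chr12:561996-562025): ggaaattgacagATGatgcttgaagggtat
In CLB5 a UUG 153 nt before the AUG, with an ORF of 14 codons, had LTM evidence of 1372 and a score of 0.845. In CLB6 a UUG 200 nt before the AUG, with an ORF of 15 codons, had 1370 and 0.878. The annotated start had 6849 in CLB5 and 7581 in CLB6. Together with the CLB1 UUG at 126 nt (7 codons, LTM evidence 344, score 0.879), these were the 3 near-cognate upstream ORFs of the cyclins with a score above 0.8, of 67 (4.48%, against 4.18% of all near-cognate upstream candidates).

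The LTM and CHX data did not rank the CLB6 starts alike. CHX start evidence was 16.6 at the UUG and 0.00192 at the annotated AUG, whereas LTM evidence was lower at the UUG than at the AUG. In the CHX regression the strongest ORF ending at the CLB6 stop was a CUG start 471 nt inside the coding region, which had a score of 0.123 and was not rated. In CLB3 it was an AUU start 237 nt inside, with a score of 0.0847. The annotated ORF was the strongest in CLB2, CLB4 and CLB5, 3 of the 6 genes, and in 63.8% of all annotated ORFs.

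CLB2 had several rated starts before its AUG, as did its duplicate CLB1, but none that exceeded the annotated start. Its 7 rated starts before the AUG were 6 UUG and 1 AUA codons, from 36 to 397 nt upstream. The UUG codons at 64, 266, 397, 164 and 129 nt had LTM evidence of 541, 178, 135, 108 and 68.2, and the one at 36 nt had 3.70. Their scores lay between 0.618 and 0.698. In CLB1 the scores ran from 0.575 to 0.952, and 1 start held 60.3% of the gene's evidence.

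Inside the coding regions 12 of 137 out-of-frame candidates were rated (8.76%, against 10.3% in the table), and 0 of 34 in-frame truncations, against 2.71%. The deposited notes warn of a very high rate of false positives for both classes, from elongating ribosomes. Of the 137, 3 had a score above 0.8 (2.19%, against 1.16%), 1 each in CLB1, CLB3 and CLB5. The CLB1 AUG lies 46 nt after the annotated start, opens an ORF of 5 codons and had LTM evidence of 2650 with a score of 0.938, which is 0.684 times the evidence of the annotated AUG. The CLB3 AUA lies 7 nt after the annotated start, also with 5 codons, and had 304 with a score of 0.817, 1.88 times the annotated start. The CLB5 AUG lies far inside, 922 nt after the start at 790290 of SK1 chromosome 16, with an ORF of 14 codons, LTM evidence of 3710 and a score of 0.923. It held 30.7% of the LTM evidence of CLB5. In S288C, whose CLB5 copy differs in length, this codon was located by its distance from the annotated stop.

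Other genes of cell cycle control, a list of 32 written from general knowledge, were all in the table, 25 of them with an annotated ORF there and 23 with a rated one. Before the annotated start, 114 of their 374 candidates were rated (30.5%, against 20.6% in the table), the same percentage as in the cyclins. UUG was rated in 33 of 68 cases (48.5%) and AUG in 21 of 51 (41.2%), beside 0 of only 6 AUG in the cyclins. CDH1, an activator of the anaphase-promoting complex that removes B-type cyclins, had a rated extension (AUU, 15 codons, score 0.505). It carried 0.0127 times the LTM evidence of its annotated start there, against 2.83 times in CLB1. By CHX evidence the CDH1 extension was above its annotated start, with a ratio of 2.46, against 63.6 in CLB1. Of 180 candidate truncations 5 were rated (2.78%, against 2.71% in the table), in SWI5 (AUG, 629 codons inside, score 0.827), NDD1 (CUG, 248 codons, 0.798), PCL2 (UUG, 233 codons, 0.737), SWI6 (CUG, 30 codons, 0.720) and CDH1 (AUG, 74 codons, 0.601). The most rated upstream ORFs, by count, were in FKH2, a forkhead factor of the CLB2 gene cluster (8 of 10), IME2, a meiotic kinase (7 of 23), and SUM1, a repressor of middle meiotic genes (7 of 19). Over the whole list 94 of 294 upstream candidates were rated (32%), against 22% in the table. Of the 25 genes, 7 had an earlier start with more LTM evidence than the annotated one, against 16.5% of all genes, namely AMA1, CDC14, CLN2, FKH2, NDD1, PHO80 and SWI4. In CLN2, a G1 cyclin, this was a UUG 107 nt upstream whose ORF runs over the annotated start, the same kind of start as in CLB3, with a ratio of 3.67.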

How the data were processed

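The deposited table was used as given. The submitters' processing notes name CASAVA, bcl2fastq 2.17 and Bowtie2, with settings not given in the sources used here. Per the notes deposited by the authors, regressions on LTM and CHX footprints gave start and stop evidence, and a random forest on 6 features gave a score from 0 to 1 per ORF, with a second, adjusted score above 0.5. The fraction of the strongest value among ORFs sharing a stop codon is also the authors'. The ending nosat of the column names is unexplained, so the pooled libraries are not known, and 0 columns are for single libraries.

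SK1 coordinates follow the deposited annotation, counted from 1. Ratios, shares and percentiles were computed with Python 3.11.15 and pandas 2.3.3 and checked on a small made-up table. Where a gene had more than 1 annotated row, the one with most LTM evidence was used. S288C (R64) sequence was read at the same distance from the annotated start, or, for codons inside the gene where lengths differ, from the stop. Of 259 candidates 253 had the same codon there, and 242 the same ORF.

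Named were all members, their rated starts outside the coding region or a summary of them, internal starts with a score above 0.8, the 5 genes nearest to CLB1, and list genes with a rated extension or truncation or among the 3 with most rated upstream ORFs. CLN2 and the other genes with a stronger earlier start were named after their values were seen. The members and lists were chosen with earlier results of these data known. A gene of the cell cycle list that this rule selects is not reported here.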

Additional observations from a re-analysis of the deposited data

How the results depend on the processing

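Counts moved most with the score cut-off, and some of the other settings had little or no room to move them. Above 0.1 the cyclins had 79 starts passing before the annotated start, made of 71 upstream ORFs, 6 ORFs over the start and 2 extensions, with 6 AUG starts among them. There, 118 internal starts and 4 truncations passed too. Above 0.8 there were 6 before the annotated start (3 upstream, 1 extension, 5 of them UUG) and 3 internal starts. At 0.8 the cyclin share was 4.48% of near-cognate upstream candidates, against 4.18% in the table, and 2.19% of internal ones, against 1.16%. Above 0.9 there was 1, the CLB1 extension, with 0 upstream, 0 over the start and 0 UUG, beside 2 internal and 2 annotated starts. For the other classes and cut-offs the share over the whole table was not computed. Those counts show only the effect of the cut-off and not whether the cyclins were unusual. With one candidate per stop codon 1 extension was left, by construction. Starts within 250 nt kept the counts over all 6 genes within 1.5 times, while CLB2 alone had 4 in place of 7. The adjusted rating left the counts unchanged, but it is listed only for candidates with a score above 0.5 and so could add none. Near-cognate starts alone left the counts before the annotated start unchanged by construction, because no AUG there was rated.

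By CHX start evidence, the ratio of the strongest earlier start to the annotated one was 63.6 in CLB1, 0.0107 in CLB2, 0.0013 in CLB4 and 0.00937 in CLB5. It turned round in CLB6, where it was 8608; the cause was not tested. As a part of all LTM evidence of the gene, another quantity by construction, that start held 0.603 in CLB1, 0.0901 in CLB2, 0.620 in CLB3, 8.09e-05 in CLB4, 0.113 in CLB5 and 0.150 in CLB6. Among rated annotated ORFs alone, the annotated starts stood at percentiles of 53.5 (CLB1), 59.5 (CLB2), 8.62 (CLB3), 66.0 (CLB4), 68.5 (CLB5) and 70.9 (CLB6). Leaving out candidates inside the coding region, an alternative chosen after seeing the data, put 82.8% of the evidence of CLB5 on its annotated start and kept all 6 shares within 1.5 times. The median share over all genes was then 99.3%. Among all genes, each of the 6 stood at a lower percentile than with all candidates, CLB5 at 26.3 in place of 27.6. No paired analysis was possible because the rated values are not split by library.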
